A study of Mus musculus with 9 samples.

Results

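The small heat shock proteins other than the crystallins were represented by 7 genes, *Hspb1*, *Hspb2*, *Hspb3*, *Hspb6*, *Hspb7*, *Hspb8* and *Hspb11*, of the 47729 genes listed for newborn mouse lens. They were taken by gene symbol. *Hspb1* was chosen by its measured levels, which were higher in both Cre lines than in *FVB/N*, so its differences from *FVB/N* are described here without a test. The remaining 6 genes were included as members of the family, and their differences were read from the fit over all genes. The alpha crystallins *Cryaa* and *Cryab* and the testis genes *Hspb9* and *Odf1* belong to the same family and were used only for comparison.

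RNA-Seq was performed on whole lenses collected on the day of birth from non-transgenic *FVB/N* mice, hemizygous *P0-3.9GFPCre* mice and hemizygous *Le-Cre* mice, all on the inbred *FVB/N* background. There were 3 pools for each line, with 6 lenses of 3 mice in a pool. The *P0-3.9GFPCre* transgene encodes a GFP-CRE fusion protein and the *Le-Cre* transgene encodes CRE and GFP as separate proteins, in both cases from a fragment of the *Pax6* P0 promoter that is active in the lens lineage and in the pancreas. Each transgene is a separate random insertion, and no allele for CRE to recombine is named in the labels of these samples. The effects of CRE, of GFP and of the insertion site therefore cannot be told apart in a comparison with *FVB/N*. The study's methods state that hemizygotes came from crosses of homozygotes with *FVB/N* or with a reporter strain, and the cross behind these lenses is not given in the sources used here.

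The RSEM expected counts, estimated read numbers per gene, summed to between 20670968 and 28098059 in a pool. Markers of lens epithelium (7 of 7 genes) and of lens fibre cells (10 of 10 genes) passed the filter on low counts. The pools differed in the Y-linked share, the summed CPM (counts scaled to a common library size) of *Uty*, *Kdm5d*, *Eif2s3y* and *Ddx3y*, 4 genes that only males carry. This Y-linked share was 121 to 193 CPM in *FVB/N*, 1.67 to 135 CPM in *P0-3.9GFPCre* and 0.619 to 74.2 CPM in *Le-Cre*, so it was not balanced between the lines. Where p-values are given they measure the spread between these pools, and with bulk RNA fewer cells of a type and less RNA per cell cannot be told apart.

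Small heat shock proteins are chaperones that bind unfolding proteins and hold them in a soluble state until chaperones that consume ATP refold them or they are degraded. Most members share an alpha crystallin domain and assemble into dimers and larger oligomers. The lens is known for its very high content of the alpha crystallins, which keep the fibre cells transparent over a lifetime with little protein turnover. *Hspb1* encodes HSP25, a stress-inducible chaperone whose transcription is driven by heat shock factors and whose assembly is regulated by phosphorylation through p38 MAP kinase and MAPKAP kinases. *Hspb8* encodes HSP22, which works with the co-chaperone BAG3 in selective autophagy. *Hspb2*, *Hspb3*, *Hspb6* and *Hspb7* are best known from heart and skeletal muscle. *Hspb11* encodes IFT25, a subunit of the intraflagellar transport complex IFT-B of cilia, and is a relative in name rather than in chaperone function.

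The promoters of the members whose levels differed most between the lines, *Hspb1* and *Hspb8*, are shown because heat shock factors bind arrays of the 5-base unit nGAAn in alternating orientation. The motif marked here is GAANNTTC, which is 2 such units facing each other and reads the same on both strands. The sequences are those of RefSeq on GRCm38.p6, 250 bases before to 50 bases after the annotated start, 5′ to 3′ on the strand of the gene, with matches in capitals. The *Hspb1* promoter is chr5:135887669-135887968 on the plus strand, and the *Hspb8* promoter is chr5:116422815-116423114 on the minus strand.
Hspb1: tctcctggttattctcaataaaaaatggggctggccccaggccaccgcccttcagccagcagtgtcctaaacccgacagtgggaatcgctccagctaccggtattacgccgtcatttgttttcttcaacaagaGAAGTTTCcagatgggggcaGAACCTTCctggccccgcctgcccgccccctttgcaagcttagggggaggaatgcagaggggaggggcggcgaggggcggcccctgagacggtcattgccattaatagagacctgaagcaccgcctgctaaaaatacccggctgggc
Hspb8: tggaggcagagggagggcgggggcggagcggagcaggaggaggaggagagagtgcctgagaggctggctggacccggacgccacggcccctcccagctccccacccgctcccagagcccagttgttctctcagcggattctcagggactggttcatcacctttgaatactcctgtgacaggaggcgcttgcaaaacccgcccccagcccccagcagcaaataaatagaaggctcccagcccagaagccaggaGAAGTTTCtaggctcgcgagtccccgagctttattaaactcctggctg
The *Hspb1* window held 2 matches, which began 117 and 97 bases upstream of the start. A match was present in 7.86% of the 32851 promoters of this length, and 2 or more were present in 0.344%. The *Hspb8* window held 1 match, which began at base 3 of the transcript. Entries were searched for 6 of the 7 members, all but *Hspb2*, with 1 each for *Hspb3*, *Hspb7* and *Hspb11* and 2 for *Hspb6*. They held 1 match in *Hspb3*, 224 bases upstream of the start, and 1 match in the second of the *Hspb6* entries, 120 bases upstream. These matches are given with 8 flanking bases on each side.
Hspb3: cccgaatgGAATTTTCaggcagag
Hspb6: taattattGAAGTTTCtaaataag
The letters of the *Hspb1* match at 117 bases, of the *Hspb6* match and of the *Hspb8* match were the same. The entries of *Hspb7*, *Hspb11* and the first entry of *Hspb6* held none. The motif in the opposite arrangement, TTCNNGAA, was in 8.52% of all promoters and in none of these entries. The box TATAAA, found on either strand in 13.6% of all promoters, was present in *Hspb3* and in the second *Hspb6* entry. The motif extended by a further unit in alternating orientation was in 0.603% of all promoters in either arrangement. It was in none of the member entries searched, those of *Hspb1* and *Hspb8* included. A match describes these letters only, and binding was not measured.

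The members differed widely in abundance, and their order was the same in the 3 lines. In TPM, which are scaled for transcript length and can be set side by side between genes, the mean levels in *FVB/N* were 45.6 ± 0.960 (SD, n = 3) for *Hspb1*, 36.1 ± 6.20 for *Hspb11*, 17.9 ± 2.61 for *Hspb3*, 13.8 ± 2.24 for *Hspb2*, 8.14 ± 1.25 for *Hspb6*, 2.92 ± 0.690 for *Hspb8* and 0.0133 for *Hspb7*. The ranges of neighbours in this order did not overlap, except those of *Hspb3* and *Hspb2* in *Le-Cre*. *Hspb1* and *Hspb11* were among the abundant transcripts of the lens outside the crystallins. *Hspb1* exceeded 94.3% of the 24525 genes detected in *FVB/N*, 97.6% of those detected in *P0-3.9GFPCre* and 98.0% of those detected in *Le-Cre*.

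**Figure D1:**
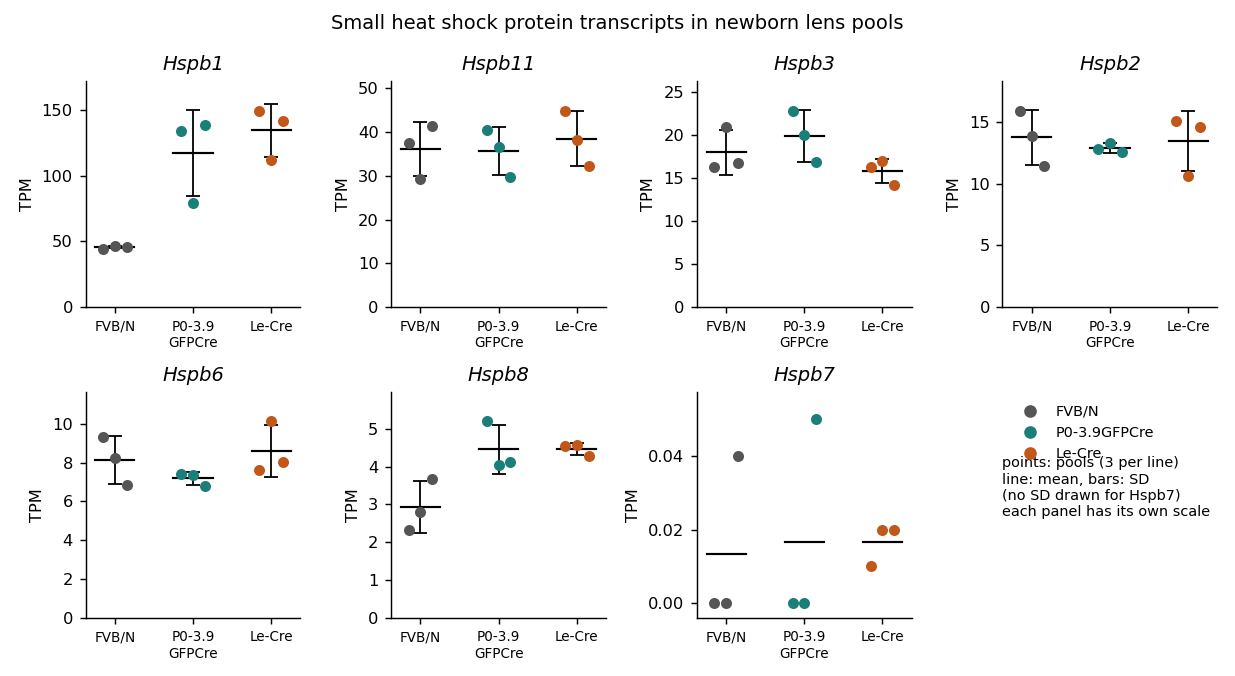
TPM of the 7 genes in each pool of the 3 lines (vertical axes in TPM, each panel with its own scale; points, pools; horizontal line, mean; bars, SD, not drawn for *Hspb7*). The *Hspb1* pools of both Cre lines lie between 79.2 and 150 TPM, above the *FVB/N* pools at 44.6 to 46.5 TPM, whereas the pools of *Hspb11*, *Hspb2* and *Hspb6* overlap between *FVB/N* and each Cre line.

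*Hspb1* was the member with the largest difference between the Cre lines and *FVB/N*, which is the difference it was chosen for. In *FVB/N*, its level was 44.6, 46.5 and 45.8 TPM in replicates 1, 2 and 3. In *P0-3.9GFPCre*, it was 134, 79.2 and 138 TPM, and in *Le-Cre* it was 150, 112 and 142 TPM. Every pool of either Cre line thus lay above every *FVB/N* pool. The *FVB/N* pools were close together, whereas replicate 2 was the lowest pool of each Cre line. The same order was found for 258 of the 15557 genes tested (1.66%) in CPM, and the reverse for 1.85%. Against *FVB/N*, *Hspb1* had a log2 fold change of 1.53 ± 0.19 (SE) in *Le-Cre* and of 1.29 ± 0.19 in *P0-3.9GFPCre*. The study's cutoff required a 1.5-fold difference and an adjusted p no greater than 0.05. In *Le-Cre* against *FVB/N*, 10 genes (0.0643%) passed it with edgeR, 7 of them higher in *Le-Cre* (0.045%), and 0 of the 5 tested members other than *Hspb1* were among them with edgeR or DESeq2. In *P0-3.9GFPCre* against *FVB/N*, 0 genes (0.0%) passed it with edgeR, 1060 genes (6.81%) had an unadjusted p under 0.05, and DESeq2 called 4 genes, with 0 of those 5 members among them. *Hspb1* was chosen on both of these differences, so nothing is read from its own place in either count.

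Within both Cre lines, *Hspb1* was lowest where the Y-linked share was highest. In *P0-3.9GFPCre*, the pools with 1.67, 56.2 and 135 CPM of Y-linked counts had 109, 101 and 62.2 CPM of *Hspb1*. In *Le-Cre*, the pools with 0.619, 1.53 and 74.2 CPM of Y-linked counts had 118, 120 and 84.1 CPM. The pool with the highest Y-linked share, replicate 2, was therefore the pool with the least *Hspb1* in either line. The other pools followed this inverse order in *P0-3.9GFPCre* and not in *Le-Cre*. Across the *FVB/N* pools, *Hspb1* stayed between 36.0 and 38.6 CPM while the Y-linked share ran from 121 to 193 CPM. *P0-3.9GFPCre* replicate 2 had a Y-linked share within the *FVB/N* range, and its *Hspb1* level of 62.2 CPM was above that range. A fit that included the log2 Y-linked share gave *Hspb1* a log2 fold change of 1.08 in *Le-Cre* and 1.05 in *P0-3.9GFPCre*. In the fit without that share, leaving out replicate 2 of the respective Cre line gave 1.68 and 1.5. The part of the sex mix in the difference was not tested beyond these values.

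**Figure D2:**
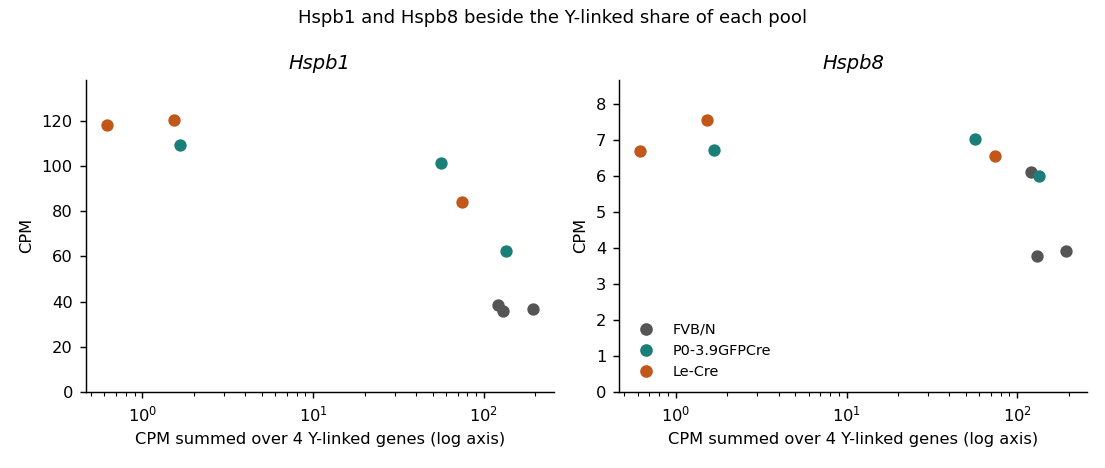
CPM of *Hspb1* (left) and *Hspb8* (right) in each pool against the CPM summed over 4 Y-linked genes (logarithmic horizontal axis). For *Hspb1*, the *FVB/N* pools lie at 36.0 to 38.6 CPM at the high end of the Y-linked axis, and *P0-3.9GFPCre* replicate 2 lies above them at 62.2 CPM with a similar Y-linked share.

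The direct comparison of the Cre lines was not used to choose *Hspb1*. *Hspb1* in *Le-Cre* relative to *P0-3.9GFPCre* had a log2 fold change of 0.24 ± 0.19 (SE), with a 95% interval of −0.17 to 0.65 and an adjusted p of 0.796 in edgeR's quasi-likelihood test, so a difference beyond the spread between pools was not shown. When a pool was left out, this value ranged from 0.03, without replicate 2 of *P0-3.9GFPCre*, to 0.40. Under the other processing choices it ranged from 0.036 to 0.26. In that comparison 0 members and 0 of 15557 genes (0.0%) passed the cutoff with edgeR, 1226 genes (7.88%) had an unadjusted p under 0.05, and DESeq2 called 38 genes and no member.

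Because of *Hspb1*, the summed level of the 7 genes was higher in the Cre lines, and the sum of the others varied little. The sum was 124 ± 2.45 TPM (SD, n = 3) in *FVB/N*, 197 ± 32.5 in *P0-3.9GFPCre* and 215 ± 22.8 in *Le-Cre*. Without *Hspb1*, it was 78.9 ± 3.25, 80.1 ± 9.43 and 80.8 ± 7.46 TPM, so the means were closer than the SD within any line. The share of *Hspb1* in the sum was 36.6% ± 1.42 in *FVB/N*, 58.6% ± 8.63 in *P0-3.9GFPCre* and 62.3% ± 3.88 in *Le-Cre*.

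**Figure D3:**
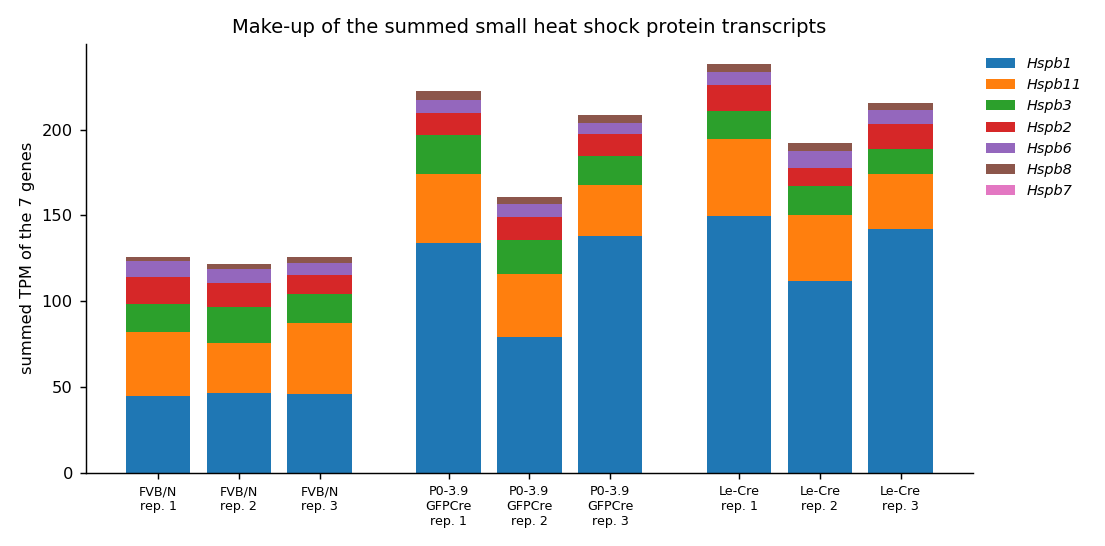
Summed TPM of the 7 genes in each pool (vertical axis), stacked by gene, with the 3 pools of each line side by side. The *Hspb1* segment is taller in the Cre pools and lowest among them in *P0-3.9GFPCre* replicate 2, whereas the sum of the other segments has means of 78.9, 80.1 and 80.8 TPM in the 3 lines.

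*Hspb1* lies on chromosome 5 (chr5:135887919-135889563, GRCm38, plus strand). Of its 1030 sequences of read length (51 bases), 49.9% also occur in transcripts of other genes, namely the copies *Hsp25-ps1* (48.7%) and *Gm9817* (38.1%). RSEM assigned at most 10.2 reads to *Hsp25-ps1* and at most 3.53 reads to *Gm9817* in any pool, against 857 to 3374 reads for *Hspb1*. With the reads of the 3 genes summed, the log2 fold change in *Le-Cre* was 1.53 and that in *P0-3.9GFPCre* was 1.29, as for *Hspb1* alone. The 3 nearest tested genes on each side had log2 fold changes from −0.10 to 0.13 in *Le-Cre* relative to *FVB/N* and from −0.32 to 0.92 in *P0-3.9GFPCre*, and 0 of 6 had an unadjusted p under 0.05 in either comparison. The largest of these values were those of *Mdh2* in *Le-Cre* (0.13, adjusted p = 0.779 in edgeR) and *Styxl1* in *P0-3.9GFPCre* (0.92, adjusted p = 0.887).

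The tested genes whose log2 CPM followed *Hspb1* most closely over the 9 pools were *Sdk2* (Pearson r = 0.963), *Gadd45g* (0.954), *Sbspon* (0.952), *Sh3bgr* (0.948) and *Kcnj10* (0.947). These coefficients are descriptions over 9 points that share libraries and include the difference between the lines. The differences of these 5 genes from *FVB/N* follow in part from how they were picked, so they are descriptions too. *Sdk2* encodes a cell adhesion molecule, *Gadd45g* a growth arrest protein and *Kcnj10* an inwardly rectifying potassium channel. Against *FVB/N*, in the same order, the log2 fold changes were 0.59, 0.39, 2.45, 0.53 and 1.26 in *Le-Cre* and 0.43, 0.29, 1.95, 0.38 and 1.152 in *P0-3.9GFPCre*. Their mean levels in *FVB/N* were 128, 24.4, 0.268, 7.98 and 1.58 CPM, so the large values of *Sbspon* rest on few reads. In neither comparison did any of the 5 pass the cutoff, with edgeR's adjusted p between 0.166 and 0.306 in *Le-Cre* and between 0.590 and 0.651 in *P0-3.9GFPCre*. Among the members, *Hspb8* had r = 0.844 with *Hspb1*, and 86 other tested genes had a higher value. The other members had r between −0.326 (*Hspb3*) and 0.0863 (*Hspb11*).

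*Hspb8* was the only other member with 95% intervals above 0 in both Cre lines relative to *FVB/N*, and it did not pass the cutoff. Its level was 2.31, 2.79 and 3.67 TPM in *FVB/N*, 5.2, 4.04 and 4.12 TPM in *P0-3.9GFPCre* and 4.54, 4.58 and 4.27 TPM in *Le-Cre*. In TPM, every Cre pool was above every *FVB/N* pool. The same held for 2.48% of the 15557 tested genes, and for 7.68% in *Le-Cre* and 10.7% in *P0-3.9GFPCre* taken singly. In CPM, which are not scaled for length, *FVB/N* replicate 3 at 6.10 was above *P0-3.9GFPCre* replicate 2 at 6.01, so these lines overlapped. RSEM's mean transcript length for *Hspb8*, which enters TPM, varied from 1557 to 1816 bases between pools. The *Le-Cre* pools, at 6.55 to 7.54 CPM, were above the *FVB/N* pools in both units, as were those of 6.46% of tested genes in CPM (6.02% in *P0-3.9GFPCre*, *Hspb1* being the only member there).

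*Hspb8* in *Le-Cre* had a log2 fold change of 0.59 ± 0.18 (SE) against *FVB/N*, with a 95% interval of 0.19 to 0.998. The unadjusted p was 0.00822 and the adjusted p was 0.433 in edgeR's quasi-likelihood test over all genes. In *P0-3.9GFPCre* it was 0.52 ± 0.19, with an interval of 0.11 to 0.93, an unadjusted p of 0.0171 and an adjusted p of 0.651. Both comparisons use the same *FVB/N* pools. *Hspb8* was the 1 member of the 5 tested besides *Hspb1* with an unadjusted p under 0.05 in each comparison. That level was reached by 7.94% of tested genes in *Le-Cre*, 3.6% with a higher and 4.34% with a lower level, and by 3.41% in each direction in *P0-3.9GFPCre*. The 91 to 212 reads per pool that support *Hspb8* make it the thinnest of the tested members. Without *FVB/N* replicate 3, the highest *FVB/N* pool, its log2 fold changes were 0.85 for *Le-Cre* and 0.78 for *P0-3.9GFPCre*. *Le-Cre* and *P0-3.9GFPCre* differed by 0.07 ± 0.18 (95% interval −0.33 to 0.47, adjusted p = 0.961).

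*Hspb8* also lies on chromosome 5 (chr5:116408491-116422864, minus strand) and had 1899 read-length sequences, 0 of which occur in another gene. The 3 nearest tested genes on each side had log2 fold changes from −0.08 to 0.65 against *FVB/N* in *Le-Cre*, 5 of 6 above 0, and from −0.15 to 0.54 in *P0-3.9GFPCre*, 4 of 6 above 0. An unadjusted p under 0.05 was reached by 2 of them in *Le-Cre* (*Cit* and *Suds3*) and by 1 in *P0-3.9GFPCre* (*Cit*), and the largest value in either line was that of *Srrm4* (adjusted p = 0.865 and 0.908 in edgeR). When the Y-linked share was included in the fit, *Hspb8* had a value of 0.50 in *Le-Cre* (unadjusted p = 0.0739) and 0.47 in *P0-3.9GFPCre* (unadjusted p = 0.0473). *Bag3*, which encodes its co-chaperone, had 2.94, 2.49 and 5.13 TPM in *FVB/N*, 4.18, 3.31 and 5.31 TPM in *P0-3.9GFPCre* and 5.0, 5.13 and 4.42 TPM in *Le-Cre*. As with *Hspb8*, replicate 3 was the highest *FVB/N* pool. *Bag3* had a log2 fold change of 0.41 ± 0.26 in *Le-Cre* (adjusted p = 0.757) and of 0.20 ± 0.26 in *P0-3.9GFPCre* (adjusted p = 0.912).

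**Figure D4:**
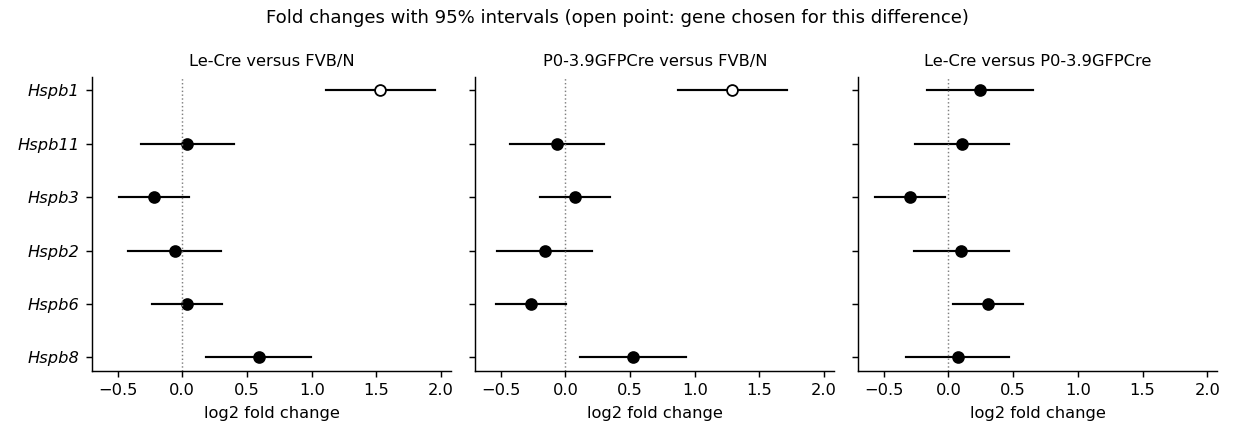
Log2 fold changes of the 6 tested members in the 3 comparisons (horizontal axis), with 95% intervals from edgeR. The open points mark *Hspb1* relative to *FVB/N*, the difference it was chosen for. Apart from those, the intervals that do not include 0 are those of *Hspb8* relative to *FVB/N* in both Cre lines and those of *Hspb3* and *Hspb6* between the Cre lines.

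*Hspb3*, *Hspb6* and *Hspb2*, the members best known from muscle, were present in the lens at moderate levels, and none passed the cutoff in any comparison. *Hspb3* had 16.2, 20.9 and 16.7 TPM in *FVB/N*, 22.8, 19.95 and 16.8 TPM in *P0-3.9GFPCre* and 16.2, 16.9 and 14.2 TPM in *Le-Cre*. In CPM, its *Le-Cre* pools (10.1 to 11.1) lay below those of *P0-3.9GFPCre* (11.4 to 14.8), an order found for 7.37% of tested genes, and below those of *FVB/N* (11.2 to 14.2), an order found for 7.03%. In TPM, the *Le-Cre* pools overlapped those of both other lines. Between the Cre lines the log2 fold change, *Le-Cre* relative to *P0-3.9GFPCre*, was −0.30 ± 0.12 (SE), with an unadjusted p of 0.0347 and an adjusted p of 0.584. Relative to *FVB/N*, *Hspb3* differed by −0.22 ± 0.12 in *Le-Cre* and by 0.08 ± 0.12 in *P0-3.9GFPCre* (adjusted p = 0.723 and 0.929). The gene lies on chr13:113662896-113663676, minus strand, and shared no read-length sequence.

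*Hspb6*, which encodes HSP20, had 9.34, 8.24 and 6.84 TPM in *FVB/N*, 7.42, 7.36 and 6.81 TPM in *P0-3.9GFPCre* and 7.63, 10.1 and 8.03 TPM in *Le-Cre*. The *P0-3.9GFPCre* pools were the closest together and the lowest on average. In CPM they lay between 8.17 and 8.72, below every *Le-Cre* pool (9.25 to 11.5) and below every *FVB/N* pool (8.80 to 11.3). Such an order was found in 6.74% of tested genes for the former and 5.94% for the latter. In TPM, the *P0-3.9GFPCre* pools were below those of *Le-Cre* and overlapped those of *FVB/N*. *Le-Cre* relative to *P0-3.9GFPCre* differed by 0.30 ± 0.12 on the log2 scale, at an unadjusted p of 0.0317 and an adjusted p of 0.566. The difference of *P0-3.9GFPCre* from *FVB/N* was −0.27 ± 0.12 (unadjusted p = 0.0538, adjusted p = 0.722), and that of *Le-Cre* was 0.04 ± 0.12 (adjusted p = 0.970). *Hspb3* and *Hspb6* were thus the 2 of 6 members with an unadjusted p under 0.05 between the Cre lines, in opposite directions, where 3.63% of tested genes reached that level with a higher value in *Le-Cre* and 4.25% with a lower one. *Hspb6* lies on chr7:30552178-30555443, plus strand, where 122 of its exon bases overlap *Proser3* on the other strand.

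*Hspb2* had 15.96, 13.9 and 11.5 TPM in *FVB/N*, 12.8, 13.3 and 12.6 TPM in *P0-3.9GFPCre* and 15.1, 10.7 and 14.6 TPM in *Le-Cre*. The pools of the 3 lines overlapped. The log2 fold change of *Hspb2* against *FVB/N* was −0.06 ± 0.16 for *Le-Cre* and −0.16 ± 0.17 for *P0-3.9GFPCre*, with 95% intervals of −0.42 to 0.30 and −0.52 to 0.20. *Le-Cre* and *P0-3.9GFPCre* differed by 0.10 ± 0.17 (adjusted p = 0.927). *Hspb2* (chr9:50751078-50752354, minus strand) and *Cryab* (chr9:50751325-50756636, plus strand) overlap head to head in GENCODE M21, with 252 shared exon bases. The library kit does not mark strand as far as the sources used here state, and 24.3% of the read-length sequences of *Hspb2* also occur in *Cryab*, whose reads were about 164500 per pool against 239 for *Hspb2*. The single transcripts of *Hspb2* and *Cryab* that the deposited tables list share 0 exon bases, and RSEM gave a posterior SD of 0 reads for *Hspb2* in every pool. The level of *Hspb2* is uncertain to the extent that *Cryab* reads fall outside its listed transcript.

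*Hspb7*, a member known from heart and skeletal muscle (chr4:141420779-141425311, plus strand), was at the limit of detection. It had 0, 0 and 2.52 reads in *FVB/N*, 0, 0 and 2.78 reads in *P0-3.9GFPCre* and 0.98, 1 and 1.02 reads in *Le-Cre*. Each of these counts is below 3 reads, the limit that a count of 0 allows, which is 0.107 to 0.145 CPM in these pools and covers counting error only. It did not pass the filter on low counts, and a difference between the lines was not detectable at this depth. The 12 striated muscle markers were also nearly absent, with a summed level of 1.95 to 6.35 TPM over the 9 pools, and 1 of them, *Mylpf*, passed the filter. *Hspb2*, *Hspb3* and *Hspb6* were each more abundant than these 12 genes together in every pool.

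*Hspb11* (chr4:107253593-107279938, plus strand) had 37.5, 29.3 and 41.5 TPM in *FVB/N*, 40.5, 36.7 and 29.7 TPM in *P0-3.9GFPCre* and 44.9, 38.2 and 32.3 TPM in *Le-Cre*. The pools varied by more within a line than the line means differed. Its log2 fold change was 0.04 ± 0.16 in *Le-Cre* (95% interval −0.32 to 0.40) and −0.07 ± 0.17 in *P0-3.9GFPCre* (−0.43 to 0.30), and the Cre lines differed by 0.11 ± 0.16 (adjusted p = 0.920). Of its read-length sequences, 5.53% were shared with 32 other genes, and RSEM's posterior SD was at most 2.04% of its count. Among 17 other subunits of IFT-B, 16 were tested and 0 passed the cutoff in any of the 3 comparisons with edgeR or DESeq2. By edgeR, 1, 0 and 2 of them had an unadjusted p under 0.05 in *Le-Cre* against *FVB/N*, *P0-3.9GFPCre* against *FVB/N* and between the Cre lines, a level reached by 7.94%, 6.81% and 7.88% of all tested genes. Their summed level was higher in *P0-3.9GFPCre* (248 to 260 TPM) than in *FVB/N* (197 to 233) and *Le-Cre* (222 to 230), with no overlap. Of all tested genes, 10.7% had every *P0-3.9GFPCre* pool above every *FVB/N* pool in TPM, against 6.02% in CPM. The median log2 fold change of the 16 subunits was 0.01 for *Le-Cre* and 0.08 for *P0-3.9GFPCre* relative to *FVB/N*, beside medians of 0.00 over all tested genes. *Ift81* had the largest difference among them, −0.48 ± 0.12 in *Le-Cre* relative to *P0-3.9GFPCre* (adjusted p = 0.385), and *Ift27*, which encodes the partner of IFT25, differed by −0.09 ± 0.11 in that comparison (adjusted p = 0.889).

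The alpha crystallins dwarfed the other family members. *Cryaa* had means of 137875, 139291 and 134389 TPM in *FVB/N*, *P0-3.9GFPCre* and *Le-Cre*, and *Cryab* had 6236, 6284 and 6804 TPM. The largest log2 fold change of either gene in any of the 3 comparisons was 0.15 ± 0.11 (*Cryab*, *Le-Cre* relative to *P0-3.9GFPCre*, adjusted p = 0.791). The ratio of *Cryab* to *Hspb1* in TPM was 137 ± 16.8 (SD, n = 3) in *FVB/N*, 58.0 ± 24.0 in *P0-3.9GFPCre* and 51.4 ± 8.31 in *Le-Cre*. *Hspb9* had at most 2 reads and *Odf1* at most 3 reads in a pool, and neither was tested.

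Transcription of heat shock genes is driven by the heat shock factors, and *Hsf4* is the one known for its role in the lens. It had 158 to 178 TPM in *FVB/N*, 166 to 187 TPM in *P0-3.9GFPCre* and 153 to 181 TPM in *Le-Cre*. Relative to *FVB/N* it differed by −0.04 ± 0.07 in *Le-Cre* and −0.01 ± 0.07 in *P0-3.9GFPCre*, and *Hsf1*, the general stress-responsive factor, differed by 0.02 ± 0.09 and 0.11 ± 0.09, all on the log2 scale. Of the 6 genes in the list of heat shock factors and their binding protein, 4 were tested. With edgeR 0 passed the cutoff in the 3 comparisons, an unadjusted p under 0.05 was reached by 0, DESeq2 called 0, and the largest absolute value was −0.16 ± 0.11 (*Hsf2*, *Le-Cre* relative to *P0-3.9GFPCre*, adjusted p = 0.764).

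Among 20 other chaperones and co-chaperones induced by heat shock factor 1, 19 were tested and 0 passed the cutoff in any comparison with edgeR or DESeq2, whereas 1, 2 and 2 had an unadjusted p under 0.05 with edgeR (7.94%, 6.81% and 7.88% of all tested genes). Against *FVB/N*, their median log2 fold change was 0.07 in *Le-Cre*, with 13 of 19 above 0, and 0.04 in *P0-3.9GFPCre*, with 11 of 19 above 0. By comparison, the median over the 6 tested small heat shock proteins was 0.04 and 0.0048, and 0.04 and −0.07 without *Hspb1*. *Dnajb1*, which encodes an HSP40 co-chaperone, had the lowest p of the list against *FVB/N*. It had 132, 119 and 116 TPM in *FVB/N*, 168, 139 and 187 TPM in *P0-3.9GFPCre* and 167, 182 and 178 TPM in *Le-Cre*. Every Cre pool was above every *FVB/N* pool, an order found in TPM for 2.48% of all tested genes. The lowest Cre pool was *P0-3.9GFPCre* replicate 2. Its log2 fold change was 0.49 ± 0.10 in *Le-Cre* (adjusted p = 0.175) and 0.36 ± 0.10 in *P0-3.9GFPCre* (adjusted p = 0.590). With DESeq2 the adjusted p was 0.000297 and 0.0412, at a fold below the cutoff in both comparisons. The inducible HSP70 genes were barely detected, with at most 0.18 TPM of *Hspa1a* and 0.29 TPM of *Hspa1b* in a pool, and the constitutive *Hspa8* differed by −0.0014 ± 0.12 in *Le-Cre* and −0.05 ± 0.12 in *P0-3.9GFPCre*.

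Of 12 kinases and partners of the small heat shock proteins, 12 were tested and 0 passed the cutoff with edgeR or DESeq2 in the 3 comparisons, whereas 1, 1 and 2 had an unadjusted p under 0.05 with edgeR, beside the same shares of all tested genes (7.94%, 6.81% and 7.88%). Their median log2 fold change was 0.02 for *Le-Cre* and 0.10 for *P0-3.9GFPCre*. The largest differences from *FVB/N* were those of *Mapkapk3*, which encodes a kinase that phosphorylates HSP25. It had 1.48, 0.80 and 0.65 TPM in *FVB/N*, 2.71, 1.8 and 2.51 TPM in *P0-3.9GFPCre* and 1.53, 1.90 and 3.44 TPM in *Le-Cre*. All Cre pools were above all *FVB/N* pools, narrowly so for *Le-Cre* replicate 1, an order found in TPM for 2.48% of all tested genes. *Mapkapk3* had a log2 fold change of 0.69 ± 0.28 in *Le-Cre* (adjusted p = 0.586) and 0.75 ± 0.28 in *P0-3.9GFPCre* (adjusted p = 0.659). *Mapkapk2*, the related kinase, differed by −0.10 ± 0.09 and 0.10 ± 0.09.

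**Figure D5:**
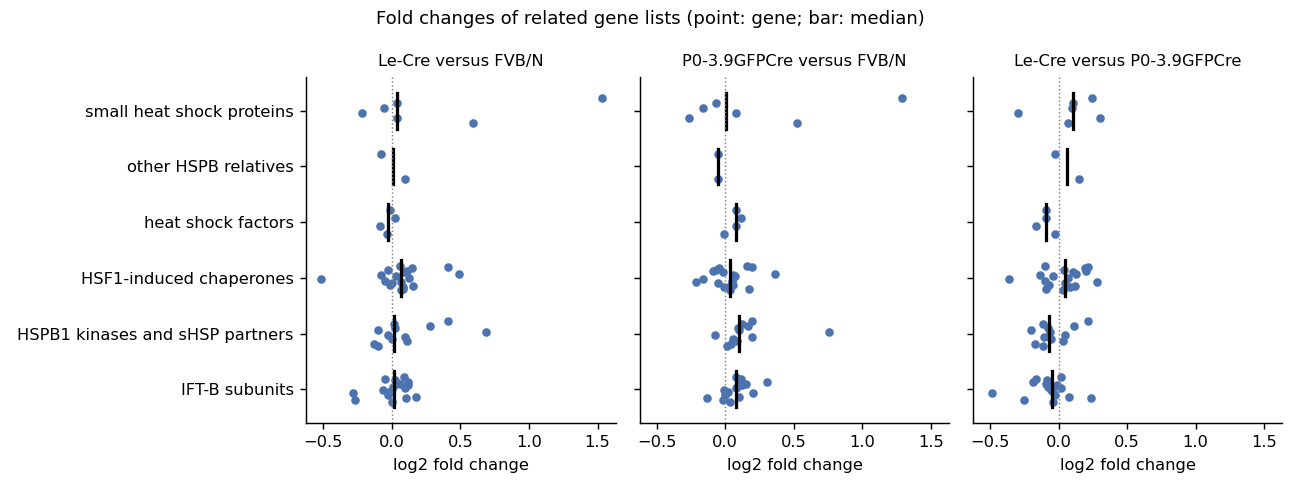
Log2 fold changes of the tested genes in 6 lists related to the small heat shock proteins (points) with the list median (vertical bars) in the 3 comparisons. The points of *Hspb1* at 1.53 and 1.29 stand apart from the rest of the family, and the list medians relative to *FVB/N* lie between −0.05 and 0.10.

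Markers of other cells that a dissected lens could carry did not pass the cutoff in any comparison with edgeR or DESeq2, and their summed levels in each Cre line overlapped those in *FVB/N*. Among them, *Tagln* of smooth muscle (0.96 ± 0.40, adjusted p = 0.591) and *Col1a1* of mesenchyme (−2.07 ± 0.67, adjusted p = 0.451) had an unadjusted p under 0.05 in *Le-Cre* against *FVB/N*. In *FVB/N*, *P0-3.9GFPCre* and *Le-Cre*, the 11 vessel and smooth muscle markers summed to 39.5 to 50.5, 27.5 to 47.7 and 39.0 to 47.8 TPM. The 10 blood and macrophage markers summed to 93.0 to 189, 87.4 to 152 and 86.0 to 264 TPM. The 11 retina and pigment epithelium markers reached at most 8.74 TPM in sum, the 8 surface epithelium markers 3.79 TPM, with *Krt12*, *Krt14* and *Trp63* listed at 0 in every pool, and the 7 mesenchyme markers 3.15 TPM. Lens epithelium markers summed to 272 to 287 TPM in *FVB/N*, 262 to 280 in *P0-3.9GFPCre* and 240 to 267 in *Le-Cre*, whose pools lay below those of *FVB/N*. Among single genes, 7.03% of those tested had every *Le-Cre* pool below every *FVB/N* pool in CPM. The 7 of 7 epithelium markers with a log2 fold change below 0 in *Le-Cre* relative to *FVB/N* had a median of −0.15, beside −0.004 over all tested genes. Their lowest value was −0.40 (*Pdgfra*, adjusted p = 0.169 with edgeR and 0.00119 with DESeq2). In *P0-3.9GFPCre*, *Pdgfra* differed by −0.28 (adjusted p = 0.590 with edgeR and 0.0849 with DESeq2). The fibre marker *Dnase2b* differed by −0.37 in *Le-Cre* (adjusted p = 0.356 and 0.0601) and by −0.45 in *P0-3.9GFPCre* (adjusted p = 0.590 and 0.013), in the same order of tools. The fibre marker *Crygs* differed by 0.29 in *Le-Cre* (adjusted p = 0.628 and 0.418) and by −0.14 in *P0-3.9GFPCre* (adjusted p = 0.874 and 0.817). The 10 fibre markers had a median of −0.05 in *Le-Cre*, 3 of them above 0, and −0.07 in *P0-3.9GFPCre*, 2 above 0. They summed to 114700 to 124700 TPM in *FVB/N*, 112200 to 131700 in *P0-3.9GFPCre* and 123300 to 132200 in *Le-Cre*. *Pdgfra*, *Dnase2b* and *Crygs* did not reach the 1.5-fold of the cutoff, whereas *Tagln* and *Col1a1* in *Le-Cre* missed it on adjusted p. The part of these markers in the *Hspb1* level was not tested.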

How the data were processed

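RNA-Seq was performed by the authors on polyadenylated RNA of whole newborn lenses with single-end reads. Their length was taken as 51 bases from the difference between length and effective length in the deposited tables. Per the study's methods, reads were trimmed with Trimmomatic 0.36, mapped to GRCm38 with GSNAP and quantified with RSEM 1.3.0. The deposited tables give expected counts, RSEM's estimated reads per gene, and TPM, which the authors' RSEM run scaled for length and depth, with RSEM's posterior SD of the count, which covers only how reads are divided among genes. The gene annotation is not given in the sources used here. Of 47729 identifiers, 47310 matched GENCODE M21.

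Expected counts were rounded and analysed in R 4.3.3 with edgeR 4.0.16 (TMM, filterByExpr, quasi-likelihood test on all 9 pools, Benjamini-Hochberg adjustment over 15557 genes). The SE of a log2 fold change was taken from its F statistic. A gene was called at 1.5-fold or more with an adjusted p of at most 0.05, the cutoff of the study, whose methods name DESeq2. DESeq2 1.42.0 without prior was run as an alternative. The script was tested on simulated data. TPM was used for levels only. Total counts per pool limit precision as stated in the text. Groups and replicate numbers were taken from the sample titles. For 1 pool, the description gives another number.

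The members and gene lists were chosen with earlier results of these data known. Named genes were the members and their relatives, the 5 genes most correlated with *Hspb1*, the members of each list that passed the cutoff or otherwise moved most, flanking genes of *Hspb1* with the largest change, and copies sharing read-length sequence. *Hspa1a*, *Hspa8*, *Hsf4*, *Ift27*, *Mapkapk2*, *Cit*, *Suds3*, *Srrm4* and *Col1a1* were named after their values were seen. Promoters were those of RefSeq (GRCm38.p6).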

Additional observations from a re-analysis of the deposited data

How the results depend on the processing

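For the members, 1 fold change moved by more than the spread between pools and 7 changed sign in some alternative, each of the latter being small and far from the cutoff. When the Y-linked share was included in the fit, *Hspb1* in *Le-Cre* relative to *FVB/N* had a log2 fold change of 1.08, *Hspb2* between the Cre lines had −0.038, and the genes past the cutoff in *Le-Cre* relative to *FVB/N* numbered 0. Leaving out each pool in turn, the log2 fold change in *Le-Cre* against *FVB/N* ranged from −0.051 to 0.13 for *Hspb6*, from −0.16 to 0.12 for *Hspb2* and from −0.15 to 0.14 for *Hspb11*. *P0-3.9GFPCre* relative to *FVB/N* ranged from −0.012 to 0.18 for *Hspb3* and from −0.22 to 0.0095 for *Hspb11*, and *Le-Cre* relative to *P0-3.9GFPCre* ranged from −0.077 to 0.26 for *Hspb11*. *Hspb1* in *Le-Cre* ranged from 1.44 to 1.68 against *FVB/N*, and in *P0-3.9GFPCre* from 1.14 to 1.5. *Hspb8* ranged from 0.47 to 0.85 and from 0.40 to 0.78. The adjusted p of *Hspb8* stayed above the cutoff under each alternative that gave one, at 0.143 to 0.951 in *Le-Cre* and at 0.418 to 0.968 in *P0-3.9GFPCre*.

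The counts of genes past the cutoff depended more on the processing. For *Le-Cre* relative to *FVB/N*, the count was 10 in the main analysis, 131 without the filter on low counts (27804 genes tested), 5 with a mean of at least 10 counts, 54 with DESeq2 and 0 to 10 when a pool was left out. For *P0-3.9GFPCre* relative to *FVB/N*, it was 0, 93 without the filter, 4 with DESeq2 and 0 to 14 when a pool was left out (14 without *FVB/N* replicate 2). Between the Cre lines, it was 0, 123 without the filter, 31 with only the compared pools, 38 with DESeq2 and 0 to 18 when a pool was left out (18 without *FVB/N* replicate 2). The cause was not tested. The replicate numbers were not used to pair the pools in the main fit. The deviations of same-numbered pools had a mean correlation of 0.030 (9 pairs, 3 of them over 0.1). Those of differently numbered pools of different lines had a mean of −0.015 (18 pairs, 1 of them over 0.1). Whether same-numbered pools were handled together is not given in the sources used here. With a replicate block, 2 genes passed the cutoff in *Le-Cre* relative to *FVB/N* and 0 in the other comparisons, and *Hspb8* had log2 fold changes of 0.61 and 0.53. With 3 pools per line, differences of the size seen for *Hspb3*, *Hspb6* and *Hspb8* did not pass adjustment over all genes.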
